A study of Mus musculus with 6 samples.

Results

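Small nucleolar RNA host genes are transcribed into RNAs that carry small nucleolar RNAs (snoRNAs) in their introns. The 10 host genes described here, Snhg1, Snhg3, Snhg4, Snhg5, Snhg6, Snhg8, Snhg12, Snhg15, Gas5 and Zfas1, were taken by gene symbol from expression tables that together list 14667 gene IDs, and all 10 were found in both tables. They were chosen with their values in these libraries already known, so their levels and differences are given as descriptions with no p-value, and where the fit over all genes called one of them, that call is counted as a description too. The study sequenced poly(A) RNA from NE-4C cells, a mouse neural stem cell line that lacks p53, in 3 engineered lines with 2 libraries each. All 3 lines, the control included, carried a knockout of H3f3a, a gene for the histone variant H3.3. H3.3WT, the control, had HA-tagged wild-type H3.3 put back by stable expression. Cbfa2t2_KO, labelled as H3.3WT with Cbfa2t2 knocked out, lacked both H3f3a and Cbfa2t2 and carried the same wild-type transgene. H3.3K27M lacked H3f3a and carried HA-tagged H3.3 with the K27M substitution, the histone change found in diffuse midline glioma. The labels do not say whether a line was 1 clone or whether its libraries came from separate cultures, so all p-values measure the spread between libraries, which may be technical. Levels are FPKM, the fragments of a gene scaled to its transcript length and to the mapped fragments of the library, in the order of library 1 and library 2 of each line.

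After splicing, the introns of a host transcript are trimmed into snoRNAs, which guide chemical modification of ribosomal RNA: box C/D snoRNAs direct 2'-O-methylation and box H/ACA snoRNAs direct pseudouridylation. The spliced exons of these hosts encode no known conserved protein, and many of them are short-lived because translation of their short reading frames exposes them to nonsense-mediated decay. Several hosts start with a terminal oligopyrimidine (TOP) tract, the pyrimidine run that ribosomal protein mRNAs share and that ties their translation to growth signals, and some host RNAs, Gas5 first among them, accumulate when growth or translation slows. Poly(A) libraries measure the spliced, polyadenylated host RNA and recover mature snoRNAs poorly.

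The snoRNA cargo is what the hosts share, and 1 annotated snoRNA each from 6 hosts is shown to make the 2 classes visible. The sequences are from the GRCm38 genome at GENCODE vM21 coordinates, written 5′ to 3′ on the strand of the host. Capitals mark the C box (TGATGA) and the D box (CTGA) in the first 4, and the ACA box in the last 2.
Snord80 in Gas5, chr1:161037604-161037680, plus strand: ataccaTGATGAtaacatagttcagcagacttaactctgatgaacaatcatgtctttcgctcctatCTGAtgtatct
Snord50a in Snhg5, chr9:88521529-88521600, minus strand: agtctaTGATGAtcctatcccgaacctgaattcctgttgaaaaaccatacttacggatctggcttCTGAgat
Snord87 in Snhg6, chr1:9942463-9942549, minus strand: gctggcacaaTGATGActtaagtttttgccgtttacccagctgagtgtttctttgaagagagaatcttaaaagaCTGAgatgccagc
Snord12 in Zfas1, chr2:167065276-167065365, plus strand: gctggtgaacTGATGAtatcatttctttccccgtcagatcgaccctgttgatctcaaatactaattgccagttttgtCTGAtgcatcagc
Snora24 in Snhg8, chr3:123507937-123508066, minus strand: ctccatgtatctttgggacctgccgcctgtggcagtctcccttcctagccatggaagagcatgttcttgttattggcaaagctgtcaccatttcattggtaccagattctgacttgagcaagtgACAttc
Snora9 in Snhg15, chr11:6528033-6528165, minus strand: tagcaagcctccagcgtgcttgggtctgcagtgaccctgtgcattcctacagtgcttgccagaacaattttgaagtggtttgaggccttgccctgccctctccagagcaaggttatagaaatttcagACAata

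The start regions of the hosts are shown because a TOP tract is the feature by which hosts resemble ribosomal protein genes. Promoters of 8 hosts were found in the RefSeq promoter table (GRCm38.p6), and each window below runs from 20 bases before to 30 bases after the annotated start, 5′ to 3′ on the gene's strand. Capitals mark a pyrimidine tract, defined as a C followed by at least 4 bases that are each C or T and starting within 5 bases of the annotated start on the sense strand, or, in Snhg15, the motif CACGTG, which reads the same on both strands.
Gas5, chr1:161035146-161035195, plus strand: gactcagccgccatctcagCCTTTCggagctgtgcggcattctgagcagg
Snhg12, chr4:132308658-132308707, plus strand: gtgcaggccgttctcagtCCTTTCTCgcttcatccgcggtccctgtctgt
Snhg3, chr4:132353657-132353706, minus strand: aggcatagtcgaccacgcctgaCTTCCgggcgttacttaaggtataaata
Snhg8, chr3:123508307-123508356, minus strand: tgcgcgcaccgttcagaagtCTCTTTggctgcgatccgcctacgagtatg
Snhg5, chr9:88522868-88522917, minus strand: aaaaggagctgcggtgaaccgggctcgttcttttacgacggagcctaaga
Snhg15, chr11:6528731-6528780, minus strand: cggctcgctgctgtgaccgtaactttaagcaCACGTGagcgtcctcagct
A tract by this definition stood at the start of 4 of the 8 hosts, Gas5 (the second of its annotated starts), Snhg3, Snhg8 and Snhg12. Of all 27025 genes with a listed promoter 21.2% had one at any listed start, and of 61 ribosomal protein genes 47.5% did. The motif CACGTG was present in 1 of the 8 hosts, Snhg15, 11 bases after the start, against 8.09% of all genes over the same 300-base promoters. The windows of Snhg5, Snhg1 and Zfas1 held neither a tract by this definition nor CACGTG. That of Snhg5 does hold a C followed by 4 T, but further than 5 bases after the annotated start, so it was not counted. Since this definition found a tract in only 47.5% of the ribosomal protein genes, its absence does not show that a host lacks one.

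The hosts lie on 7 chromosomes in the 9 cases placed by GENCODE vM21 (GRCm38). Gas5 (chr1:161034422-161038539) has 10 entries annotated as snoRNA genes, the most entries of the 9, and up to 12 exons in 1 transcript. Snhg1 (chr19:8723475-8726443) has 8, Snhg12 (chr4:132308623-132311024) has 5 and Zfas1 (chr2:167062934-167065862) has 3. Snhg3 (chr4:132348014-132353686) and Snhg5 (chr9:88521050-88522929) have 2 each. Snhg6 (chr1:9941959-9944118), Snhg8 (chr3:123507552-123508404) and Snhg15 (chr11:6525591-6528760) have 1 each. These are counts of annotation entries. Snord80 of Gas5 and Snora16a of Snhg12 are each entered under more than 1 gene ID at the same place, and 1 entry of Gas5 is named Mir5117. All 33 entries lie inside an intron of a host transcript, and 31 also overlap an exon of another transcript of the same host, so retained introns are part of what is annotated as host.

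Across the whole series, log2 correlations over genes were 0.984 to 0.988 within lines and 0.945 to 0.978 between lines. Without counts in the tables the sequencing depth is not known, and values carry no counting interval. Summed FPKM over the shared genes ran from 363536 to 393192 in 5 libraries and was 417267 in the second H3.3K27M library, the highest. As a check of the labels, Cbfa2t2 was at 1.38 and 1.35 FPKM in H3.3WT, 1.02 and 0.769 in Cbfa2t2_KO and 2.02 and 0.855 in H3.3K27M. Cbfa2t2 did not pass the test in Cbfa2t2_KO against H3.3WT (limma adjusted p = 0.153), and RNA left by an edited allele would still be counted. H3f3a, the source of the transgene, was read at 131 and 181 FPKM in H3.3WT and at 66.3 to 82.1 in the other lines. Reads from the transgenes and from what is left of the edited locus cannot be told apart. Of 12 neural stem markers 10 were in both tables, among them Nes (14.3 to 38.8 FPKM), Sox2 (9.55 to 34.4) and Sox3 (47.4 to 92.9), while Pax6 stayed between 0.232 and 0.926 and Sox1 and Fabp7 were not in both tables. These markers differed between the lines, as given beside the host comparisons.

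Among hosts of box C/D snoRNAs, Snhg5, which carries the Snord50 snoRNAs, had the widest spread between lines. Its level was 3.05 and 2.31 FPKM in H3.3WT, 8.52 and 7.41 in Cbfa2t2_KO and 15.1 and 16.7 in H3.3K27M. The 3 lines did not overlap, and their order was H3.3WT, Cbfa2t2_KO, H3.3K27M. The means were 2.68 ± 0.526 (SD, n = 2), 7.96 ± 0.785 (SD, n = 2) and 15.9 ± 1.08 (SD, n = 2), so the Cbfa2t2_KO mean was 2.97 times and the H3.3K27M mean 5.93 times that of H3.3WT.

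Gas5, named for its accumulation in growth-arrested cells, had the same order of lines at a much lower level. It was at 0.449 and 0.546 FPKM in H3.3WT, 1.46 and 1.13 in Cbfa2t2_KO and 2.28 and 2.60 in H3.3K27M. Again no library of one line lay within the range of another. The means were 0.498 ± 0.069, 1.29 ± 0.229 and 2.44 ± 0.223 FPKM (SD, n = 2 each), ratios of 2.60 and 4.90 to H3.3WT. Gas5 in H3.3WT sat at the floor of the tables, in which every gene reached 0.500 FPKM in at least 1 library. Zbtb37, on the other strand with its start 427 bases from that of Gas5, overlaps it and was not in the tables.

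Snhg6, the host of Snord87, was high in H3.3K27M alone. The values were 10.9 and 11.9 FPKM in H3.3WT, 10.96 and 10.5 in Cbfa2t2_KO and 20.2 and 29.5 in H3.3K27M. The first 2 lines overlapped, and both H3.3K27M libraries lay above them, with a mean of 24.8 ± 6.61 (SD, n = 2), 2.18 times H3.3WT and 2.31 times Cbfa2t2_KO. The H3.3K27M libraries themselves differed by a factor of 1.46.

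Zfas1, transcribed from the promoter region it shares with the gene Znfx1, differed less. It was at 16.4 and 18.3 FPKM in H3.3WT, 13.7 and 15.3 in Cbfa2t2_KO and 21.8 and 26.4 in H3.3K27M. Cbfa2t2_KO lay below and H3.3K27M above H3.3WT without overlap, at ratios of 0.837 and 1.39. Snhg1, a host of C/D snoRNAs, was at 26.1 and 29.0 FPKM in H3.3WT, 23.1 and 18.3 in Cbfa2t2_KO and 25.8 and 33.2 in H3.3K27M. For Snhg1 the Cbfa2t2_KO libraries were below the other 4, and H3.3K27M overlapped H3.3WT.

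Among hosts of box H/ACA snoRNAs, Snhg15 was the host that was lower in both altered lines. Its RNA is known to be short-lived. It was at 33.1 and 27.5 FPKM in H3.3WT, 9.13 and 8.84 in Cbfa2t2_KO and 10.03 and 13.1 in H3.3K27M. The H3.3WT libraries lay far above the other 4, and H3.3K27M lay slightly above Cbfa2t2_KO. The mean of 30.3 ± 3.92 in H3.3WT was 3.37 times that of Cbfa2t2_KO (8.99 ± 0.202) and 2.61 times that of H3.3K27M (11.6 ± 2.19; SD, n = 2 each).

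Snhg8, the host of Snora24, was the most abundant of the 10 in both altered lines. Its values were 28.3 and 30.4 FPKM in H3.3WT, 48.1 and 51.0 in Cbfa2t2_KO and 55.2 and 85.6 in H3.3K27M. The lines did not overlap and had the order seen for Snhg5 and Gas5. The H3.3K27M mean of 70.4 ± 21.5 (SD, n = 2) was 2.39 times H3.3WT, and the Cbfa2t2_KO mean of 49.6 ± 2.01 (SD, n = 2) was 1.69 times H3.3WT. The H3.3K27M libraries differed from each other by a factor of 1.55, the widest gap within that line among the hosts.

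Snhg12, which carries Snora16a, Snora44, Snora61 and Snord99, was at 6.97 and 8.82 FPKM in H3.3WT, 4.27 and 5.95 in Cbfa2t2_KO and 7.81 and 10.6 in H3.3K27M. Cbfa2t2_KO was lowest, and H3.3K27M overlapped H3.3WT. Snhg3, the host of Snora73a and Snora73b, was at 2.99 and 4.64 FPKM in H3.3WT, 5.25 and 4.11 in Cbfa2t2_KO and 5.67 and 5.71 in H3.3K27M. Here Cbfa2t2_KO overlapped H3.3WT, and both H3.3K27M libraries lay above the other 4. Snhg4 was at 1.24 and 1.38 FPKM in H3.3WT, 1.42 and 1.28 in Cbfa2t2_KO and 1.81 and 2.12 in H3.3K27M. Its H3.3K27M libraries lay above the other 4, which overlapped.

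**Figure D1:**
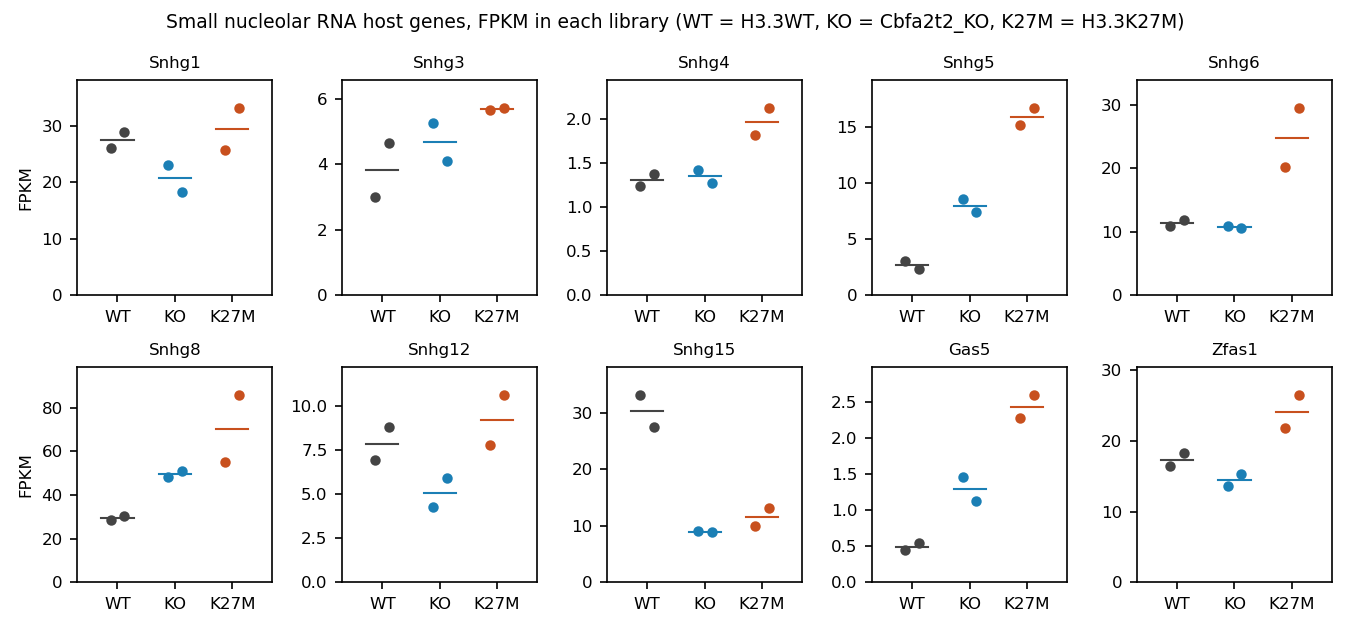
FPKM of each host gene in every library (points) with the mean of each line (bars), each panel on its own linear axis from 0, for H3.3WT (WT), Cbfa2t2_KO (KO) and H3.3K27M (K27M), 2 libraries each. Snhg5, Snhg8 and Gas5 climb from left to right, Snhg15 is high in H3.3WT alone, and all 10 genes have both H3.3K27M points above both Cbfa2t2_KO points.

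Ordered by level, the hosts changed places between lines. In H3.3WT, Snhg15 (30.3 FPKM), Snhg8 (29.4) and Snhg1 (27.6) stood highest and their libraries interleaved, followed by Zfas1 (17.3), Snhg6 (11.4) and Snhg12 (7.89). Snhg3 (3.82) and Snhg5 (2.68) were not separated beyond their spread, and Snhg4 (1.31) and Gas5 (0.498) were lowest. In Cbfa2t2_KO, Snhg8 (49.6) stood alone at the top and Snhg15 (8.99) stood below Snhg1, Zfas1 and Snhg6, just above Snhg5 (7.96), while Snhg12 and Snhg3, and likewise Snhg4 and Gas5, were not separated from each other. In H3.3K27M, Snhg8 (70.4) was followed by Snhg1 (29.5), Snhg6 (24.8) and Zfas1 (24.1), which overlapped, and then by Snhg5 (15.9), which had passed Snhg15 (11.6), Snhg12 (9.22) and Snhg3 (5.69).

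Summed over the 10 hosts, the level was 129 and 135 FPKM in H3.3WT, 126 and 124 in Cbfa2t2_KO and 166 and 226 in H3.3K27M. These sums were between 0.0315% and 0.0541% of all FPKM in a library. Snhg8 made up much of the sum: without it the levels were 101 and 104 in H3.3WT, 77.8 and 72.9 in Cbfa2t2_KO, and 111 and 140.0 in H3.3K27M. The second H3.3K27M library was above the first in all 10 hosts, and it was also the library with the highest summed FPKM. The part of that difference in scale in the host values was not tested apart from the scaling alternatives given below.

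For comparisons between lines, differences were taken on the log2(FPKM + 1) scale, which understates the change of low genes such as Gas5 and Snhg4, and were fitted with limma over every gene that averaged 1 FPKM or more. A gene was called at an adjusted p below 0.05. In Cbfa2t2_KO against H3.3WT, 9 hosts entered the test, Gas5 falling under the mean. Of these, 2 were called higher (Snhg5, 1.29 ± 0.19 SE, and Snhg8, 0.73 ± 0.13), 1 was called lower (Snhg15, -1.64 ± 0.16), and 6 were not called. Of all 11626 genes tested 34.6% were called, 13.1% higher and 21.5% lower. Since the hosts were chosen on these data, nothing is read from their count. Over all 10 hosts, Gas5 included from a fit without the filter (0.61 ± 0.16), the median difference was -0.03 beside -0.11 for all genes tested. The lines did not overlap for 3 hosts that were higher and 4 that were lower, against 28.5% and 42% of all genes, 70.4% together. The 3 calls held when any 1 library was left out.

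In H3.3K27M against H3.3WT all 10 hosts were tested. Snhg5 (2.21 ± 0.19), Snhg8 (1.20 ± 0.22), Gas5 (1.20 ± 0.17) and Snhg6 (1.04 ± 0.21) were called higher, Snhg15 (-1.32 ± 0.19) was called lower, and 5 were not called. Gas5 averaged 1 FPKM or more only through its H3.3K27M libraries (2.28 and 2.60, against 0.449 and 0.546 in H3.3WT). Its entry to the test thus depended on the direction of its difference, and a filter of 5 FPKM left it out. Of 11623 genes 26.2% were called, 8.42% higher and 17.8% lower. The median of the 10 was 0.47, beside -0.12 for all genes. The lines did not overlap for 7 hosts that were higher and 1 that was lower, against 25.1% and 41.3% of all genes. Without either H3.3WT library Snhg6 was no longer called. The difference of Snhg1 (0.09 ± 0.18) turned negative without the second H3.3K27M library (-0.09) and when the libraries were scaled to equal summed FPKM (-0.02), and that of Snhg12 (0.20 ± 0.21) reached -0.01 without the same library. This comparison shares its H3.3WT libraries with the one above, so like values in both are not separate evidence.

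H3.3K27M was above Cbfa2t2_KO in every library of all 10 hosts, Snhg15 included, an arrangement found in 26.7% of all 11601 genes tested, of which 58.2% did not overlap in either direction. The differences ran from 0.24 ± 0.21 for Snhg3 to 1.11 ± 0.20 for Snhg6, with a median of 0.54 beside -0.02 for all genes. Snhg6, Snhg5 (0.92 ± 0.18) and Zfas1 (0.69 ± 0.16) were called, and 7 were not, where 7.8% of all genes were called, 3.12% higher and 4.68% lower. Without the first or the second Cbfa2t2_KO library, or without the second H3.3K27M library, none of the 10 was called by limma (5, 5 and 4 had an unadjusted p below 0.05), and over all genes the calls fell from 905 to 162, 29 and 161. All 10 differences stayed above 0 under each of the alternatives run, at their smallest between 0.10 for Snhg3 and 0.85 for Snhg6.

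**Figure D2:**
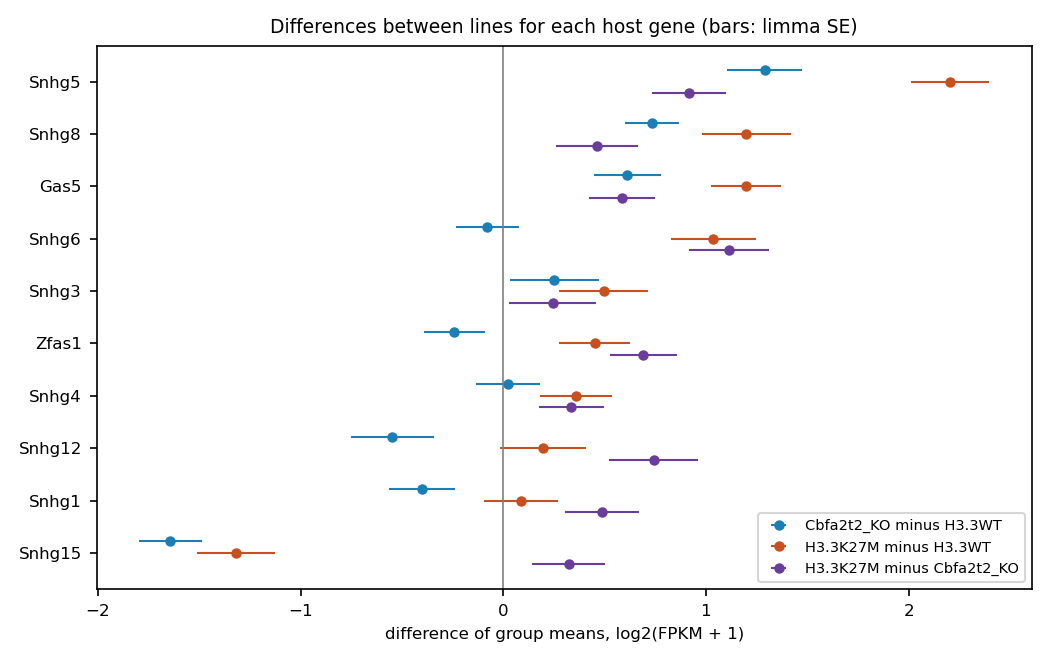
Differences between lines on the log2(FPKM + 1) scale for each host gene, with limma standard errors as bars, for 3 comparisons (colours); the vertical line marks 0. Snhg5 reaches 2.21 in H3.3K27M against H3.3WT, Snhg15 lies at -1.64 and -1.32 against H3.3WT, and all H3.3K27M minus Cbfa2t2_KO values lie right of 0.

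Beside the differences in H3.3K27M, other measures of the libraries moved too. For scale, 13.1% of all genes rose and 21.5% fell in Cbfa2t2_KO, and 8.42% rose and 17.8% fell in H3.3K27M against H3.3WT. Of 13 mitochondrially encoded genes 9 rose and 0 fell in H3.3K27M against H3.3WT, with summed levels of 5941 and 5998 FPKM against 3181 and 3649, but without the first or the second H3.3WT library 0 and 2 rose, and without the second H3.3K27M library 5 did. In Cbfa2t2_KO, where these genes summed to 4727 and 3187, limma called 0 of 13, and 0 had an unadjusted p below 0.05. Of 14 immediate early genes tested, which respond within minutes to growth factors and handling, 8 fell and 1 rose in each altered line (5 fell in Cbfa2t2_KO without its second library, and 3 to 5 in H3.3K27M without either of its libraries or the second H3.3WT library), and their summed level was 590 and 816 FPKM in H3.3WT against 149 to 190 in the other 4 libraries. Of 9 neural stem markers tested, 4 fell and 2 rose in Cbfa2t2_KO and 3 fell and 2 rose in H3.3K27M, and the 10 in both tables summed to 213 and 222 FPKM in H3.3WT, 153 and 144 in Cbfa2t2_KO and 170 and 181 in H3.3K27M. Nes was at 35.2 and 38.8 FPKM in H3.3WT, 24.0 and 18.1 in Cbfa2t2_KO and 16.8 and 14.3 in H3.3K27M, and Sox2 was low in Cbfa2t2_KO alone (12.3 and 9.55, against 28.1 to 34.4 in the other 4 libraries). The call of Nes in Cbfa2t2_KO was lost without its second library, and that of Sox3 in H3.3K27M without either H3.3WT library. Neuronal markers, 6 of 10 in both tables, went in both directions. Tubb3, the most abundant, was at 123 and 139 FPKM in Cbfa2t2_KO and 67.4 to 71.6 in the other lines, and made up most of their summed level of 141 and 157 FPKM there against 83.0 to 87.5. In Cbfa2t2_KO 2 of 6 rose and 1, Nefl (7.78 and 9.06 to 4.64 and 4.404), fell, a call lost without the second library of either line. In H3.3K27M 3 of 5 fell, Nefl, Rbfox3 and Elavl3, with a list median of -0.56, and each of these calls was lost without at least 1 of the 4 libraries. Rbfox3 and Elavl3 reached the filter of 1 FPKM there only through H3.3WT. Glial markers, of which only Aldh1l1 and Mbp were in both tables, summed to 3.42 to 8.004 FPKM, and 7 of 10 mesenchymal markers to 23.3 to 38.7. In bulk RNA, fewer cells of a type and less RNA per cell cannot be told apart, and the part of any of these in the host differences was not tested.

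The snoRNAs themselves were seen only in part: 16 of the 33 entries inside the hosts were in at least 1 table and 13 in both. These rows were added after their values were seen. Of the 33 entries 31 overlap a host exon, so they are not evidence separate from the chosen hosts. Of 10 tested in H3.3K27M against H3.3WT, 4 were called higher and 0 lower, with 5 higher and 0 lower at an unadjusted p below 0.05. Snora73a, in Snhg3, entered that test through 1 H3.3K27M library (0.186 and 3.96 FPKM, against 0.0822 and 0.105 in H3.3WT). Among all genes 8.42% were called higher, and of all 55 snoRNA rows tested, those inside the hosts included, 9 were called higher and 2 lower, with a median of 0.27 beside -0.12 for all genes. Of 7 tested in Cbfa2t2_KO against H3.3WT limma called 0, with 1 higher at an unadjusted p below 0.05. Snord12, in Zfas1, was at 0.437 and 4.90 FPKM in H3.3WT, 2.52 and 3.50 in Cbfa2t2_KO and 11.4 and 11.8 in H3.3K27M. Both H3.3K27M libraries were above the other 4, which scattered widely, and the difference from H3.3WT was 2.11 ± 0.53 (limma adjusted p = 0.0213). Snora61, in Snhg12, was at 1.46 and 2.04 FPKM in H3.3WT, 2.58 and 3.32 in Cbfa2t2_KO and 4.06 and 4.73 in H3.3K27M. The 3 lines did not overlap, and H3.3K27M differed from H3.3WT by 0.98 ± 0.20 (limma adjusted p = 0.0101), although Snhg12 itself was not called.

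Gm22357, an annotated snoRNA gene in Gas5, was at 1.97 and 1.24 FPKM in H3.3WT, 2.51 and 1.30 in Cbfa2t2_KO and 6.48 and 4.18 in H3.3K27M. H3.3K27M stood above both other lines, by 1.27 ± 0.24 over H3.3WT (limma adjusted p = 0.0080) and by 1.13 ± 0.27 over Cbfa2t2_KO (limma adjusted p = 0.0394). Gm24452, in Snhg1, was at 0.0708 and 2.17 FPKM in H3.3WT, 0.0896 and 3.26 in Cbfa2t2_KO and 3.83 and 3.63 in H3.3K27M. Its H3.3WT libraries lay far apart, and its call (1.36 ± 0.42, limma adjusted p = 0.0442) was lost under 4 of the alternatives that keep all libraries, 1 of which, robust eBayes, also ended the call of Snord12 (limma adjusted p = 0.233). Each of the 4 calls was also lost when some single library was left out: Snord12 without either H3.3K27M library, Snora61 without the second H3.3K27M or the first H3.3WT library, Gm22357 without the second H3.3WT library, and Gm24452 without the first H3.3WT or either H3.3K27M library. Gm22357 lost its call over Cbfa2t2_KO without any 1 library of the lines compared, with a pseudocount of 0.1 and under equal-sum scaling.

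For Snhg15 and Snhg8 the measured cargo was not called. Snora9, in Snhg15, was at 3.38 and 1.40 FPKM in H3.3WT, 1.78 and 2.67 in Cbfa2t2_KO and 3.10 and 0.0988 in H3.3K27M, and all lines overlapped. Snora24, in Snhg8, was at 0.0833 and 2.64 FPKM in H3.3WT, 2.05 and 2.67 in Cbfa2t2_KO and 2.25 and 5.52 in H3.3K27M, and was not called either. Snord50a and Snord50b of Snhg5 were not in the tables, and Snord80 of Gas5 was listed at 0 in both H3.3WT libraries and between 0.332 and 1.16 FPKM in the others. Mature snoRNAs have no poly(A) tail, and reads of host exons or retained introns that cover a snoRNA gene can be counted to it, so these rows do not measure the snoRNA alone.

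**Figure D3:**
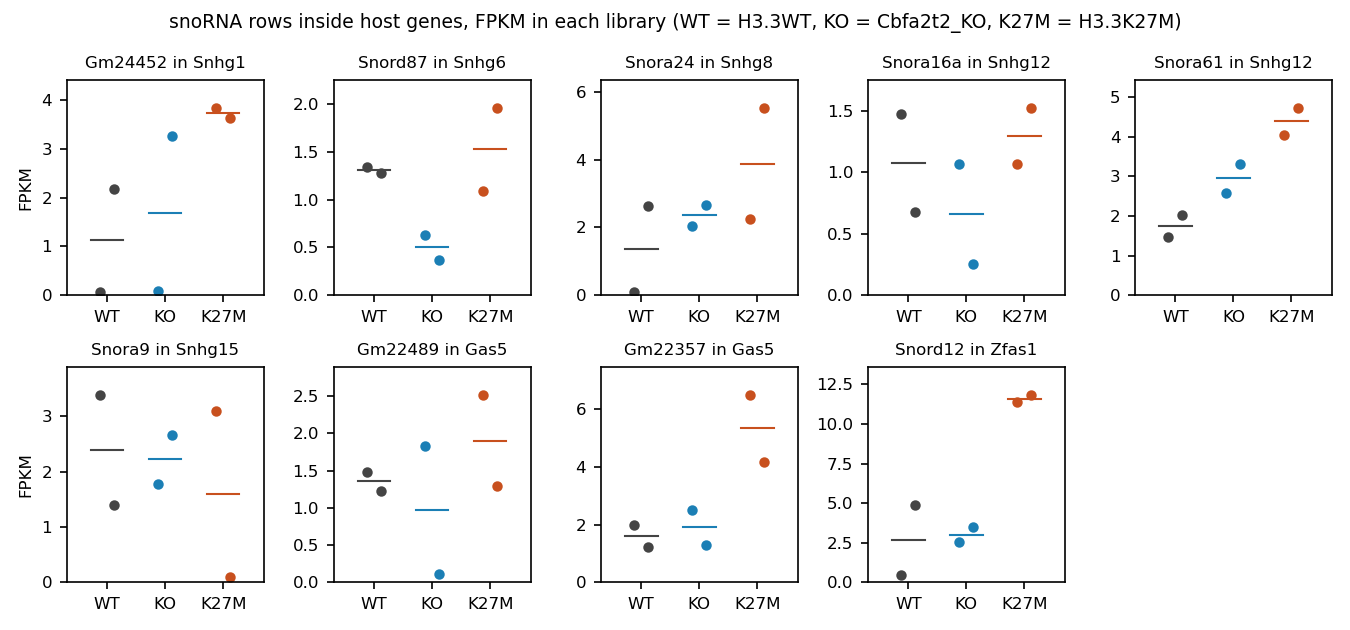
FPKM of 9 snoRNA genes annotated inside the hosts, in every library (points) with the mean of each line (bars), on linear axes from 0, for H3.3WT (WT), Cbfa2t2_KO (KO) and H3.3K27M (K27M). Snord12 reaches 11.4 and 11.8 in H3.3K27M, and several rows, such as Gm24452 and Snora9, differ more between libraries of 1 line than between lines.

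Of the genes that start near a host on the other strand, Slc3a2, whose start lies 106 bases from that of Snhg1, encodes the heavy chain of the CD98 amino acid transporter. It was at 185 and 191 FPKM in H3.3WT, 112 and 121 in Cbfa2t2_KO and 119 and 133 in H3.3K27M. Slc3a2 fell in Cbfa2t2_KO (-0.68 ± 0.13, limma adjusted p = 0.0066) and in H3.3K27M (-0.58 ± 0.17, limma adjusted p = 0.0369), the latter call being lost without the first H3.3K27M library, without either H3.3WT library and under median-of-ratios scaling. Snhg1 was lower in Cbfa2t2_KO and overlapped H3.3WT in H3.3K27M, as given above. Znfx1, 81 bases from Zfas1 and overlapping it, was at 7.69 and 7.50 FPKM in H3.3WT, 8.34 and 8.16 in Cbfa2t2_KO and 4.66 and 6.70 in H3.3K27M and was not called, with the lowest values in the line where Zfas1 was highest.

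Gm17300, a noncoding gene that overlaps Snhg3 on the other strand, was at 0.509 and 0.750 FPKM in H3.3WT, 1.18 and 1.02 in Cbfa2t2_KO and 2.20 and 2.25 in H3.3K27M. Gm17300 rose in H3.3K27M against H3.3WT (0.99 ± 0.18, limma adjusted p = 0.0062), a call lost without the first H3.3WT library. Only through its H3.3K27M libraries did it reach the filter of 1 FPKM there. It passed against Cbfa2t2_KO by a small margin (0.62 ± 0.16, limma adjusted p = 0.0484), and that call was lost when any 1 library was left out and under 4 other alternatives. Rcc1, which overlaps Snhg3 on its own strand, was between 15.9 and 24.5 FPKM and was not called. Gm27494, which overlaps Zfas1 on its strand, was at 5.34 and 8.48 FPKM in H3.3WT and 4.11 and 2.16 in Cbfa2t2_KO. It fell there (-0.95 ± 0.28, limma adjusted p = 0.0336), but not without the second library of either line. The strand of the libraries is not stated, so reads from overlapping genes cannot be told apart.

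Of 12 other noncoding hosts on a list outside the 10, 6 were tested in each comparison, with 3, 1 and 0 calls beside 34.6%, 26.2% and 7.8% of all genes. Snhg17 had a pattern close to that of Snhg15: 11.1 and 9.20 FPKM in H3.3WT, 3.06 and 3.298 in Cbfa2t2_KO and 3.54 and 3.78 in H3.3K27M. Both altered lines lay below H3.3WT, by -1.41 ± 0.18 (limma adjusted p = 0.0014) and -1.25 ± 0.19 (limma adjusted p = 0.0037). In Cbfa2t2_KO, Epb41l4aos fell from 59.9 ± 5.02 to 42.4 ± 5.61 FPKM (SD, n = 2 libraries; limma adjusted p = 0.0372) and Snhg18 rose from 4.83 ± 0.121 to 7.69 ± 0.569 (SD, n = 2 libraries; limma adjusted p = 0.0312), and both calls were lost when any 1 library was left out, that of Epb41l4aos also under 4 alternatives that keep all libraries. Snhg10, Snhg20 and Dancr were not called in any comparison, and between H3.3K27M and Cbfa2t2_KO limma called 0 of the 6, with 1 higher and 1 lower at an unadjusted p below 0.05. A wider list, the genes not typed as protein-coding in GENCODE vM21 that hold a snoRNA gene, was built after the tables were seen. It had 10 tested genes, of which 2 rose and 4 fell in Cbfa2t2_KO and 3 fell in H3.3K27M. Beyond the hosts above, 1810032O08Rik fell in both lines, from 42.3 ± 6.94 to 16.3 ± 1.44 FPKM (limma adjusted p = 0.0014) and 14.4 ± 0.721 (limma adjusted p = 0.0017; SD, n = 2 libraries each). In Cbfa2t2_KO, Cct6a, a chaperonin gene that this release types as noncoding, fell and Rab26os rose. The call of Cct6a was lost without the second Cbfa2t2_KO library. That of Rab26os was lost without the first H3.3WT library and in the fit of 6 libraries, and Rab26os passed the filter only through its Cbfa2t2_KO libraries. In H3.3K27M, AI506816 fell, a call lost without either H3.3WT library or the second H3.3K27M library.

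Protein-coding hosts, many of them ribosomal protein and translation factor genes, were called in both directions in Cbfa2t2_KO. Of 49 tested, 7 rose and 10 fell, with a median of 0.01, and of all genes 13.1% rose and 21.5% fell. The same shares of all genes were 8.42% and 17.8% in H3.3K27M against H3.3WT, and 3.12% and 4.68% against Cbfa2t2_KO. Rpl17, a large-subunit protein, rose from 258 ± 92.3 to 688 ± 255 FPKM (SD, n = 2 libraries; limma adjusted p = 0.0103), while Wdr43, a ribosome assembly factor, fell from 63.6 ± 4.67 to 30.8 ± 9.25 (limma adjusted p = 0.0066). In H3.3K27M against H3.3WT 7 rose and 1 fell, with a median of 0.28, among them Rpl3 (185 ± 38.2 to 426 ± 41.7, limma adjusted p = 0.0055), the helicase Eif4a2 (12.3 ± 2.19 to 25.5 ± 3.11, limma adjusted p = 0.0078) and the chaperone Hspa8 (232 ± 55.1 to 452 ± 1.16, limma adjusted p = 0.0128). Against Cbfa2t2_KO, H3.3K27M had 9 higher and 0 lower, with a median of 0.40, led by the nucleolar protein Ncl (36.7 ± 10.97 to 87.1 ± 4.13, limma adjusted p = 0.0240), Eif5 and Rpl4. All 197 protein-coding genes that hold a snoRNA gene in GENCODE vM21, were taken as a wider list after the tables were seen. Of those tested, 30 of 182 rose and 30 fell in Cbfa2t2_KO (median -0.04), 27 of 184 rose and 15 fell in H3.3K27M (median 0.04), and 17 of 180 were higher and 2 lower between H3.3K27M and Cbfa2t2_KO (median 0.08). The counts of the shorter list rest on single libraries: without the second H3.3WT library 1 rose and 4 fell in Cbfa2t2_KO, without the first 1 rose in H3.3K27M, and without the second Cbfa2t2_KO library none of the 9 was called by limma, while 14 of the 49 were higher at an unadjusted p below 0.05. Rpl17 lost its call without the first Cbfa2t2_KO library, Rpl3 without the second H3.3WT library, and Eif4a2 and Hspa8 without the first. Reads of ribosomal protein genes can be shared with their many pseudogene copies, so their levels are uncertain.

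TOP mRNAs other than ribosomal protein genes, the class that shares the start tract shown above, rose more often than they fell. Of 20 tested, 8 rose and 0 fell in Cbfa2t2_KO (median 0.35), and 10 rose and 0 fell in H3.3K27M (median 0.74), against 13.1% and 8.42% of all genes called higher. At an unadjusted p below 0.05, 11 were higher and 1 lower in Cbfa2t2_KO and 14 and 0 in H3.3K27M, and 1 and 2 were called lower in Cbfa2t2_KO under equal-sum and quantile scaling. Vim, an intermediate filament gene of neural stem cells, rose from 11.2 ± 1.28 FPKM to 26.9 ± 0.529 in Cbfa2t2_KO (limma adjusted p = 0.0015) and 38.2 ± 5.14 in H3.3K27M (limma adjusted p = 0.0013; SD, n = 2 libraries each). Nap1l1, a histone chaperone, rose from 9.62 ± 1.78 to 20.3 ± 1.39 (limma adjusted p = 0.0041) and 30.4 ± 2.40 (limma adjusted p = 0.0017), and Pabpc1, the poly(A)-binding protein, from 80.0 ± 11.04 to 220 ± 18.8 in H3.3K27M (limma adjusted p = 0.0019). Between H3.3K27M and Cbfa2t2_KO, 2 of 20 were called, Pabpc1 and Eif3e, and neither was called without the second Cbfa2t2_KO library. Eif3e was also not called without the second H3.3K27M library or under equal-sum scaling. Without the first or second H3.3WT library the counts were 5 and 3 in Cbfa2t2_KO and 5 and 5 in H3.3K27M. The TOP list and the protein-coding host list share Eef1b2, Eef2, Tpt1 and Rack1, so their counts are not independent. Likewise, Vim is also among the neural stem markers. Nop56, Nop58 and Dkc1 are both on the protein-coding host list and on the list of snoRNA packaging and assembly proteins below.

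**Figure D4:**
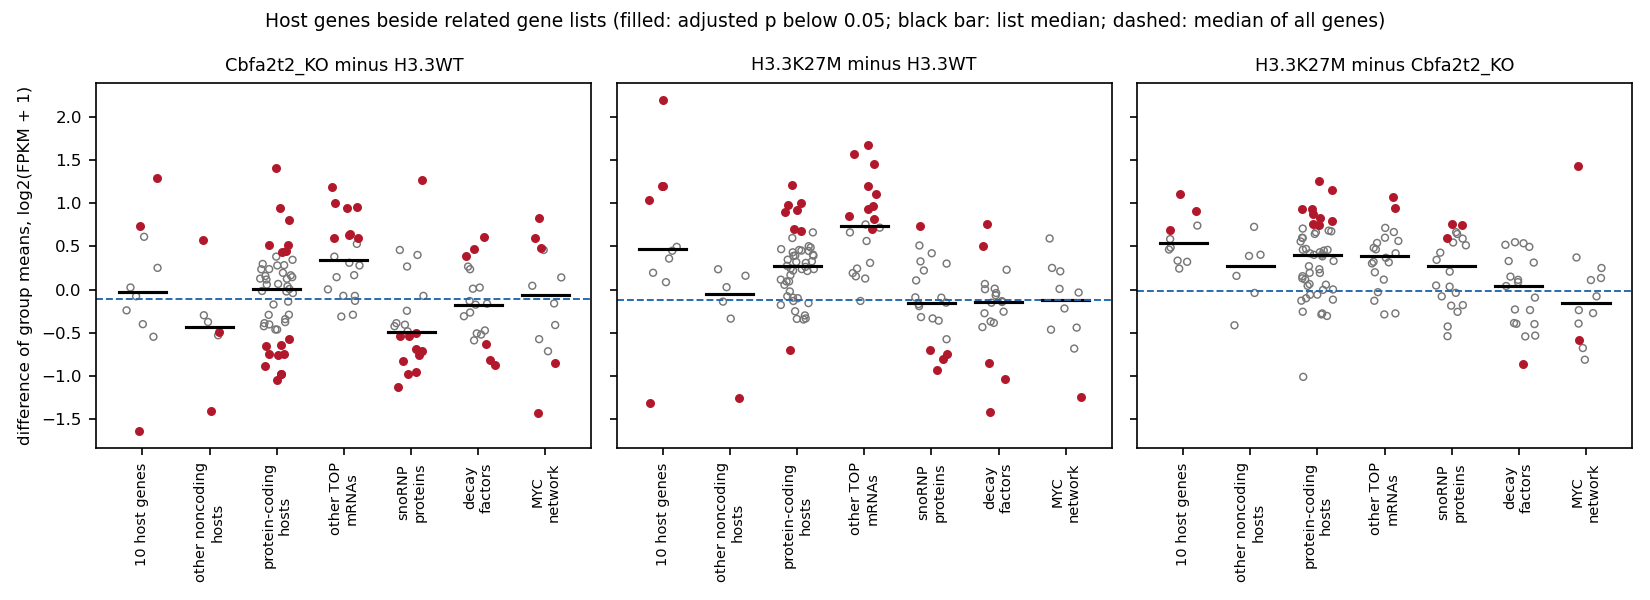
Differences on the log2(FPKM + 1) scale of the 10 host genes and 6 related lists, 1 panel per comparison, with each point a gene (filled where the limma adjusted p is below 0.05), black bars at list medians and a dashed line at the median of all genes. The list of other TOP mRNAs has medians of 0.35 and 0.74 against H3.3WT, where the snoRNP proteins lie at -0.50 and -0.16.

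The proteins that package and assemble snoRNAs went mostly the other way in Cbfa2t2_KO: of 20 tested 10 fell and 1 rose, with a median of -0.50, where 21.5% of all genes fell. Gar1, a core protein of H/ACA particles, fell from 62.5 ± 3.38 to 27.9 ± 0.269 FPKM (limma adjusted p = 0.0012), and Nop56, a core protein of C/D particles and itself a snoRNA host, from 93.1 ± 28.7 to 45.6 ± 2.32 (limma adjusted p = 0.0094; SD, n = 2 libraries each). Pih1d1, part of the assembly chaperone complex, rose from 15.1 ± 1.97 to 37.9 ± 6.24 (limma adjusted p = 0.0017). In H3.3K27M 4 fell and 1 rose, where 17.8% and 8.42% of all genes did. The 3 largest of the falls were in Coil, the Cajal body scaffold (15.0 ± 0.900 to 7.41 ± 1.10, limma adjusted p = 0.0089), the H/ACA assembly factor Shq1 (7.65 ± 0.174 to 3.97 ± 0.156, limma adjusted p = 0.0150) and the cap methylase Tgs1 (11.5 ± 2.15 to 6.37 ± 0.294, limma adjusted p = 0.0249). Against Cbfa2t2_KO, Naf1, Nop58 and Snu13 were called higher in H3.3K27M. Naf1 lost its call when any 1 library was left out, Nop58 without any 1 library of the lines compared, and both under equal-sum scaling. Snu13 lost its call without any 1 library but the first H3.3K27M library. It also lost it under median-of-ratios scaling, without the filter and with eBayes run without trend. No gene of the list was called lower by limma in H3.3K27M against Cbfa2t2_KO, with 2 lower at an unadjusted p below 0.05. The falls in Cbfa2t2_KO numbered 3 without its second library, 6 and 4 without the first and second H3.3WT library, and those in H3.3K27M numbered 0 to 2 without any 1 library. Nop56 lost its call without the second Cbfa2t2_KO library, Coil without the second H3.3WT library, Shq1 without either H3.3WT library or the second H3.3K27M library, and Tgs1 without any 1 library and under quantile scaling.

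Genes of nonsense-mediated decay, the pathway that degrades several host RNAs, were called in both directions, 3 rising and 3 falling of 19 in Cbfa2t2_KO and 2 and 3 in H3.3K27M, where 34.6% and 26.2% of all genes were called. Smg8, a regulator of the SMG1 kinase, fell from 44.8 ± 0.433 FPKM to 23.9 ± 1.36 in Cbfa2t2_KO (limma adjusted p = 0.0027) and 16.1 ± 1.66 in H3.3K27M (limma adjusted p = 0.0017; SD, n = 2 libraries each). The core helicase Upf1 fell from 47.5 ± 5.09 to 30.3 ± 0.311 (limma adjusted p = 0.0123) and 26.2 ± 6.96 (limma adjusted p = 0.0197), calls lost without any of 3 libraries in each comparison. Those libraries were both of Cbfa2t2_KO and the first of H3.3WT in the first comparison, and both of H3.3WT and the second of H3.3K27M in the other. Smg6, the endonuclease of the pathway, fell in H3.3K27M from 14.9 ± 0.379 to 6.75 ± 0.597 (limma adjusted p = 0.0054), and it was the 1 gene of the list called between H3.3K27M and Cbfa2t2_KO, lost there without either Cbfa2t2_KO library or the second H3.3K27M library. The rising genes of the list were not called without either Cbfa2t2_KO library in Cbfa2t2_KO, or without the second H3.3K27M or either H3.3WT library in H3.3K27M. List medians were -0.17 and -0.14 against H3.3WT and 0.04 between the altered lines.

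Regulators of TOP mRNAs and mTOR had 2, 1 and 2 calls in the 3 comparisons, beside 34.6%, 26.2% and 7.8% of all genes. In Cbfa2t2_KO 2 of 13 fell and 0 rose (1 was higher at an unadjusted p below 0.05): Eif4ebp1, the translation repressor that mTOR inactivates, from 227 ± 3.95 to 113 ± 12.4 FPKM (limma adjusted p = 0.0019), and Larp4, a poly(A)-tail-binding protein, from 7.71 ± 1.88 to 3.75 ± 1.51 (limma adjusted p = 0.0310; SD, n = 2 libraries each), the latter not without the second library of either line. In H3.3K27M 1 of 14 fell, the mTOR inhibitor Tsc1 (9.10 ± 1.19 to 5.51 ± 0.649, limma adjusted p = 0.0433), a call lost when any 1 library was left out and under both median-of-ratios and quantile scaling. Against Cbfa2t2_KO, H3.3K27M had 2 of 14 higher, Larp4 (8.19 ± 0.848 FPKM, limma adjusted p = 0.0475) and Eif4ebp1 (190 ± 27.8 FPKM, limma adjusted p = 0.0344), where 7.8% of all genes were called. Larp4 lost its call when any 1 library was left out, under equal-sum scaling, without the filter and with a pseudocount of 0.1. Eif4ebp1 lost its call without any 1 but the first H3.3K27M library. Of the MYC network, which drives many ribosome biogenesis genes, Myc was at 6.67 and 4.24 FPKM in H3.3WT, 1.73 and 1.03 in Cbfa2t2_KO and 5.62 and 5.13 in H3.3K27M. Myc fell in Cbfa2t2_KO (-1.43 ± 0.24, limma adjusted p = 0.0040) and was higher in H3.3K27M than in Cbfa2t2_KO (1.44 ± 0.23, limma adjusted p = 0.0147), the latter not without the second library of either line. In all, 3 of 12 network genes rose and 2 fell in Cbfa2t2_KO, where 13.1% and 21.5% of all genes did. Fewer rose there without its second library or either H3.3WT library. In H3.3K27M 1 of 10, Mxd4, fell, where 17.8% of all genes did. Among the called genes, Mxi1, an antagonist of Myc, rose in Cbfa2t2_KO from 4.80 ± 0.759 to 9.28 ± 0.516 (limma adjusted p = 0.0100; lost without the second H3.3WT library), and Mxd4, another antagonist, fell from 10.4 ± 0.421 to 5.29 ± 0.325 (limma adjusted p = 0.0063).

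By the rule for likeness, 5 genes outside the 10 followed the mean log2(FPKM + 1) of the hosts most closely over the 6 libraries, which fall into 3 lines. Only genes averaging at least 1 FPKM were ranked, and those under provisional names such as Gm or Rik symbols were left out. Within the 10, Snhg15 had r from -0.78 (with Snhg5) to 0.47 (with Snhg1). The host mean was 3.11 and 3.21 in H3.3WT, 3.19 and 3.13 in Cbfa2t2_KO and 3.60 and 3.90 in H3.3K27M. The genes were Rpl5-ps1 (Pearson r = 0.996), Dbi (0.994), Clu (0.991), Dut (0.989) and Rpl37rt (0.988). Dut, the dUTPase, was at 57.9 and 57.2 FPKM in H3.3WT, 60.3 and 59.5 in Cbfa2t2_KO and 83.9 and 99.7 in H3.3K27M. In each of the 5 the second H3.3K27M library was the highest of the 6, as in the host mean, and the r values describe that shape with no test.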

How the data were processed

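Poly(A) RNA-seq of 3 lines of NE-4C cells, 2 libraries each, was used. The authors deposited FPKM values per gene in 2 tables, each pairing an altered line with the control H3.3WT. Per the submitters' processing notes, Trim Galore, HISAT2, StringTie and DESeq were used with build GRCm38. Their roles, versions, the annotation release and the strand are not given in the sources used here. H3.3WT values were identical for all 14082 genes in both tables, so the 6 libraries were read on 1 scale. Depth is unknown. Columns of H3.3K27M were matched by the letter M in their names. Library numbers follow the order of records or columns and pair nothing across lines.

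Genes averaging 1 FPKM or more over the libraries compared entered limma 3.58.1 (R 4.3.3, eBayes with trend) as log2(FPKM + 1), with Benjamini-Hochberg adjustment over all genes and calls at adjusted p below 0.05. Fits against H3.3WT used the 4 libraries concerned, and the fit between the altered lines used all 6. The fit was tested on simulated data. The lowest p that exact permutation (two-sided) of 2 against 2 libraries can reach is 0.333. The members and gene lists were chosen with earlier results of these data known. Genes named were the 10 members, up to 3 called genes per list with the largest change, called noncoding hosts, genes starting within 2 kb of a member on the other strand, and the 5 most alike in profile. Rows of snoRNA genes inside the members, genes overlapping a member the lists of annotated hosts with their called noncoding genes, and genes shown to check labels or markers were added after their values were seen. Alternatives were a pseudocount of 0.1, no filter or 5 FPKM, median-of-ratios, quantile or equal-sum scaling, other spread estimates, a fit of 6 libraries, and each library left out. Equal-sum scaling was chosen after seeing the data. Where a line was left with 1 library, that library is assumed to vary like the others. Positions and snoRNAs are from GENCODE vM21 and promoters from RefSeq. Plots used matplotlib 3.10.9 (Python 3.11.15).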

Additional observations from a re-analysis of the deposited data

How the results depend on the processing

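Leaving out 1 library moved the number of genes called most. The range was 1915 to 3038 for Cbfa2t2_KO against H3.3WT (4028 with all libraries), 1007 to 2790 for H3.3K27M against H3.3WT (3049) and 29 to 786 for H3.3K27M against Cbfa2t2_KO (905). With libraries scaled to equal summed FPKM, an alternative chosen after seeing the data, the last was 525; the cause was not tested. Under the settings that keep all libraries, 3 to 4 hosts were called in the first comparison and 4 to 6 in the second. In the third 2 to 4 were called. Leaving out 1 library kept the calls of the first comparison and could cost Snhg6 its call in the second. In the third it could end all calls, as given above. The deposited values put the median of all genes at -0.11 and -0.12 against H3.3WT, and median-of-ratios scaling moved it to 0.00 and 0.00, so the share of calls that were higher was 37.9% and 32.1% as deposited, 50.8% and 49.0% after median-of-ratios, 49.9% and 50.4% after quantile and 30.5% and 22.6% after equal-sum scaling. Between H3.3K27M and Cbfa2t2_KO that share was 40%, 45.2%, 47.5% and 35.6%. The difference of Snhg6 in Cbfa2t2_KO (-0.08) became 0.04 under median-of-ratios and 0.06 under quantile scaling, and that of Snhg4 (0.02) changed sign in 3 alternatives. Gas5 in Cbfa2t2_KO was called without the filter and in the fit of 6 libraries, which it entered only through its H3.3K27M libraries. It also passed the filter when either H3.3WT library was left out, and was not called there. Zfas1 was also called in H3.3K27M against H3.3WT under quantile scaling. Against Cbfa2t2_KO, Zfas1 lost its call under equal-sum scaling and without either H3.3WT library, and Gas5 gained one under median-of-ratios and quantile scaling. No paired analysis was possible because the labels give the libraries no replicate numbers. FPKM without counts does not show how precisely genes near 1 FPKM, such as Gas5, Snhg4 and most snoRNA rows, were measured.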
